A study of Rattus norvegicus with 12 samples.

Results

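The genes of the Wnt pathway were followed across 12 libraries of islet RNA from Sprague Dawley rats. They were taken from the count table by symbol: every Wnt ligand, Frizzled receptor, secreted frizzled-related protein and Dickkopf listed there, together with Frzb, Wif1, Lrp5, Lrp6, Lgr4, Lgr5, Rspo1 to Rspo3, Rnf43, Znrf3, Ctnnb1, Apc, Axin1, Axin2, Tcf7, Tcf7l1, Tcf7l2 and Lef1. This gave 53 of the 25888 symbols in the table, 1 transcript each (the one with the highest mean count), and 46 of them had enough counts to be tested. The other 7 were Wnt1, Wnt8a, Wnt8b, Wnt10a, Wnt10b, Wnt16 and Dkk1, whose counts summed over all 12 libraries were 20, 4, 7, 52, 65, 54 and 7.

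The libraries came from 4 groups of 3: islets of control rats and of rats with intrauterine growth restriction (IUGR), at 2 and at 10 weeks of age. IUGR offspring were born after both uterine arteries of the dam had been tied at embryonic day 18, control litters were reduced to 8 pups, and all animals had standard chow. The labels name neither the sex of the rats nor how many rats or litters went into a library, so p-values measure the spread between these libraries, whatever its source. The surgery given to control dams, if any, is also not stated in the labels.

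Wnt proteins are secreted, lipid-modified ligands that bind Frizzled receptors together with the co-receptors Lrp5 and Lrp6. In the canonical branch this stops a complex built on Axin and Apc from marking beta-catenin (Ctnnb1) for destruction, and beta-catenin then works with TCF/LEF factors on target genes such as Axin2. Secreted frizzled-related proteins and Wif1 bind the ligands, Dickkopf proteins bind the co-receptors, and R-spondins acting through Lgr receptors remove the ubiquitin ligases Rnf43 and Znrf3, which otherwise clear Frizzleds from the cell surface. In the pancreas the pathway is known for its part in the growth of the embryonic organ and of beta cells, and TCF7L2 is a well-known locus of risk for type 2 diabetes.

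The smallest library held 30.4 M counts and the largest 64.2 M (M, mega), and no 2 libraries were identical. Levels are given as scaled CPM, which are CPM on a library size corrected by the TMM method. They are not divided by transcript length, so a level is compared between libraries for 1 gene and not between genes. The TMM factors were 0.771, 1.15 and 1.15 in control and 1.38, 1.40 and 1.36 in IUGR libraries at 2 weeks. At 10 weeks they were 0.492, 1.07 and 0.440 in control and 1.18, 1.18 and 1.16 in IUGR libraries. Levels per total count, without these factors, were not tested, so statements on overlap and order of libraries for the members hold for scaled levels only. The islet hormone genes Ins2, Gcg, Sst and Ppy were present in all 4 groups, with group means of 10918 to 69435 scaled CPM for Ins2 and 6486 to 25859 for Gcg. Markers of other pancreatic cells differed between the groups. Digestive enzyme genes of acinar cells took 20.8% to 40.8% of counts in control and 4.20% to 9.02% in IUGR islets at 2 weeks. At 10 weeks they took 13.4% to 45.4% in control and 0.599% to 2.24% in IUGR islets. The 3 smallest TMM factors were those of the 3 libraries above 40% acinar. The 21 mesenchymal genes found of 22 listed (collagens and other genes of fibroblast-like cells) summed to 6202 to 10710 scaled CPM in control and 12626 to 14579 in IUGR islets at 2 weeks, and to 1658 to 3146 in control and 858 to 1099 in IUGR islets at 10 weeks, with none of them at 0 in every library. As percent of counts the mesenchymal list overlapped at 10 weeks, with 0.0815% to 0.324% in control and 0.101% to 0.127% in IUGR islets. In a bulk sample, fewer cells of a type and less RNA per cell cannot be told apart.

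**Figure D1:**
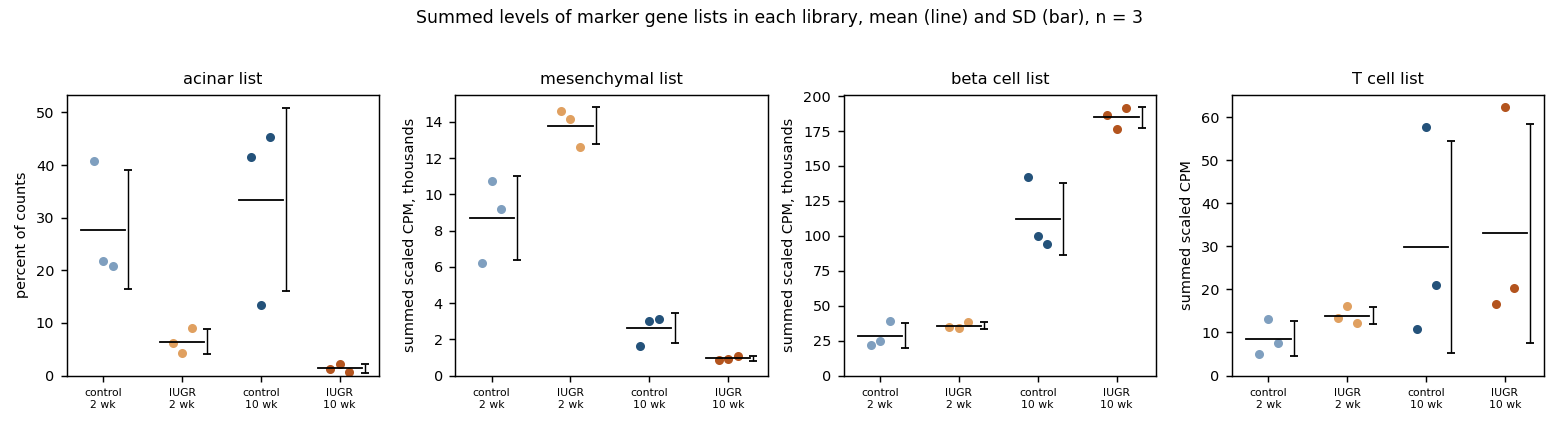
Summed levels of 4 marker gene lists in each of the 12 libraries (points), with the group mean (line) and SD (bar), n = 3; the y axis is percent of counts for the acinar list, and summed scaled CPM for the other lists, with the multiplier given on each axis. Acinar genes are low in both IUGR groups, and mesenchymal genes run from 12626 to 14579 scaled CPM in IUGR islets at 2 weeks against 858 to 1099 at 10 weeks.

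At 10 weeks IUGR islets had lower scaled levels than control islets for 5 of 10 receptors and 4 of 9 secreted inhibitors tested. The same held for the 3 R-spondins among the members (Rspo1 to Rspo3) with Lgr5, 2 of 12 ligands and Tcf7l2. Of the 46 members tested, 16 fell and 1, the R-spondin receptor Lgr4, rose (edgeR quasi-likelihood test, adjusted p under 0.05), which is 37.0% of the members beside 27.9% of all transcripts. Transcripts that fell made up 15.5% of all and those that rose 12.4%. The median log2 fold change of the members was -0.43, against -0.01 over all transcripts. Most of these 16 members were not low in IUGR islets at 2 weeks: 12 had a log2 fold change above 0 there. Wnt9a, Lrp5, Sfrp4 and Tcf7l2 had one below 0, and none of them passed. Among all members 3 passed at that age, 2 higher and 1 lower, 6.52% beside 3.88% of all transcripts (1.66% higher and 2.21% lower). Libraries of control and IUGR islets did not overlap for 17 members at 2 weeks and 22 at 10 weeks, and for 38.7% and 40.2% of all transcripts. The difference between the IUGR effects at both ages, tested directly, passed for 15 members, 14 of them with a lower effect at 10 weeks, or 32.6% beside 14.3% of all transcripts (10.4% with a lower and 3.97% with a higher effect). Of the 16 members that fell at 10 weeks, 13 were among these.

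Between 2 and 10 weeks most of the members that changed fell, in both conditions. In control islets 14 members fell and 4 rose, 39.1% in all, beside 32.3% of all transcripts, where 15.1% fell and 17.2% rose. In IUGR islets 28 fell and 6 rose, 73.9% in all, beside 56.5% of all transcripts, where 29.2% fell and 27.3% rose. The median change of the members was -0.30 in control and -1.27 in IUGR islets (-1.17 with Wnt2, which had no count in IUGR islets at 10 weeks, set at its bound), against medians of 0.00 over all transcripts. Of the genes that fell, 12 did so in both conditions, which is 12 of the 14 in control and 12 of the 28 in IUGR islets. Wnt3, Wnt4 and Fzd9 rose in both. The 2 ages did not overlap for 22 members in control and 38 in IUGR islets, and for 41.1% and 69.4% of all transcripts. The difference between the age changes in IUGR and control islets is the same quantity as the difference between the IUGR effects at both ages. Comparisons that share a group of libraries are not independent of each other.

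**Figure D2:**
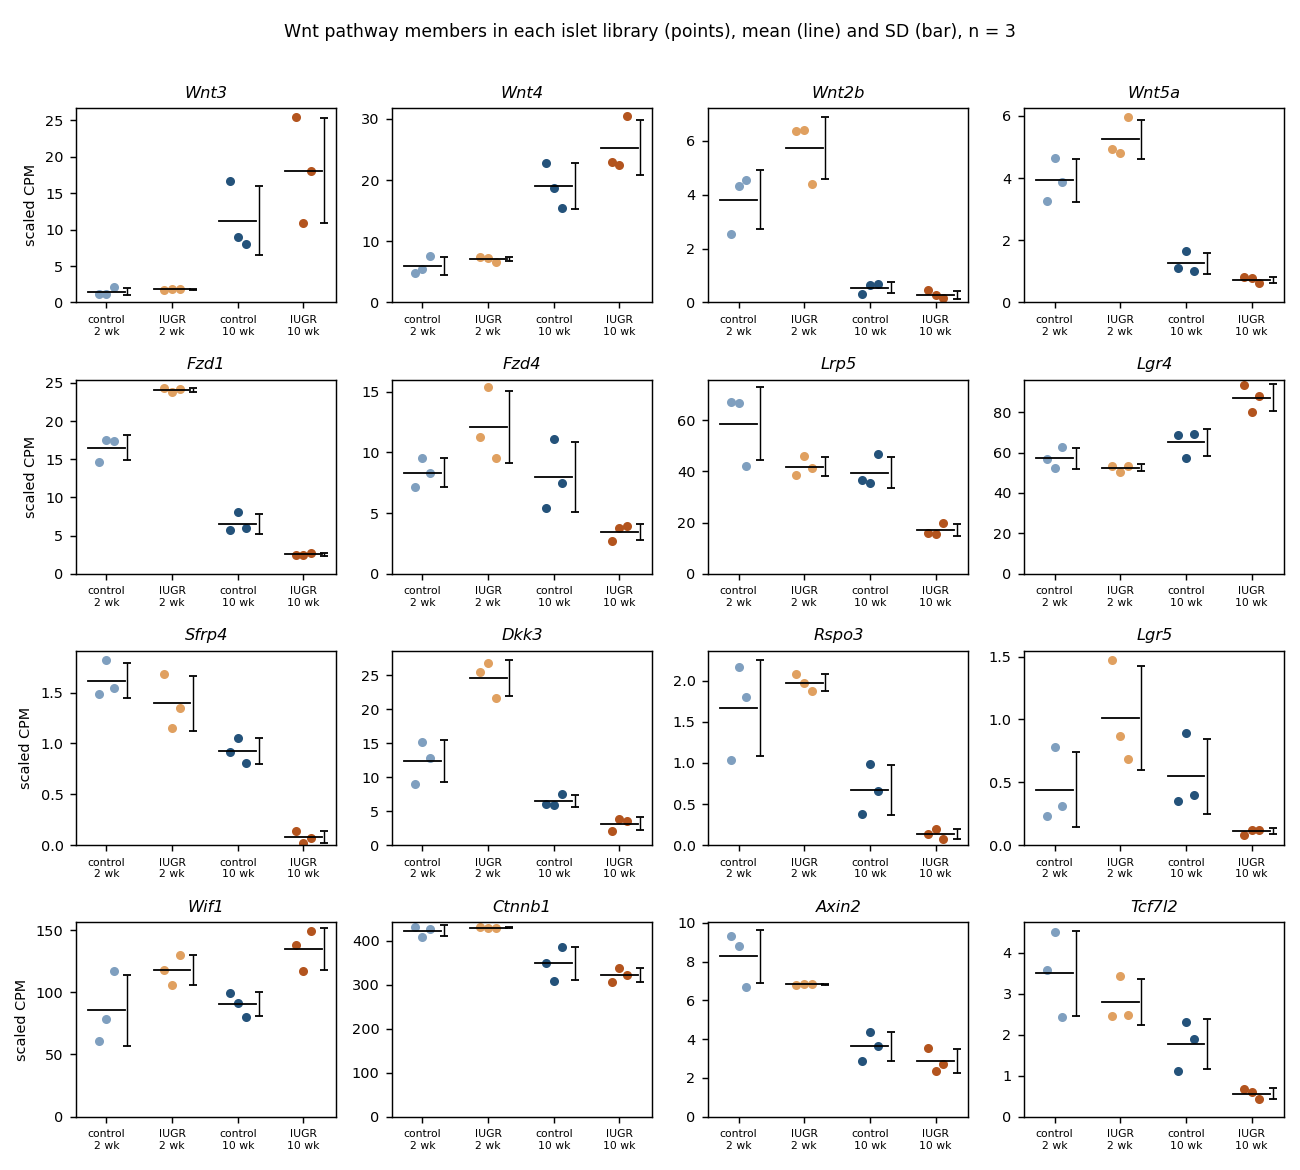
Scaled CPM (y axis, linear, from 0) of 16 members in each library of the 4 groups on the x axis (points), with the group mean (line) and SD (bar), n = 3. Wnt3 and Wnt4 are higher at 10 than at 2 weeks in both conditions, while Fzd1, Dkk3 and Tcf7l2 are lowest in IUGR islets at 10 weeks.

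The marker genes of several cell types moved with these counts. Of the 21 mesenchymal genes tested, 16 fell in IUGR islets at 10 weeks and 18 had a lower IUGR effect at 10 than at 2 weeks. With age 20 fell in IUGR and 14 in control islets. Over all transcripts these shares were 15.5%, 10.4%, 29.2% and 15.1%. Of 27 acinar genes 26 fell in IUGR islets at 10 weeks and 8 had a lower effect there. With age 16 of them fell in IUGR islets and 4 rose in control islets. Of 8 myeloid and 7 fat cell genes, 3 and 2 fell in IUGR islets at 10 weeks. Of 10 genes of Schwann and nerve cells 5 fell in IUGR islets at 10 weeks and 8 had a lower effect there than at 2 weeks. Other lists did not move this way. Of 13 ductal genes 1 fell in IUGR islets at 10 weeks and 0 had a lower effect there. Of 7 genes of alpha, delta and PP cells 0 fell and 1 rose at 10 weeks, though 4 and 5 fell with age in control and IUGR islets. Beta cell genes moved the other way. At 10 weeks they summed to 94300 to 141902 scaled CPM in control and 176727 to 191285 in IUGR islets. As percent of counts this was 4.15% to 10.7% and 20.8% to 22.1%. Of these genes 6 of 13 rose there, and 12 and 13 of the 13 rose with age in control and IUGR islets. Over all transcripts 12.4% rose at 10 weeks, and 17.2% and 27.3% rose with age. The part of the beta cell and nerve lists in the results was not tested. With the mean level of the mesenchymal list as a covariate, 2 members passed at 10 weeks, Sfrp4 at -3.35 and Dkk2 at 1.13, and over all transcripts the count went from 5776 to 364. With the acinar list as the covariate, 6 members passed at 10 weeks, all lower: Fzd1, Fzd4, Sfrp4, Rspo3 and Lgr5, which had also passed without it, and Frzb. The count over all transcripts was then 2145. With the mesenchymal covariate no member passed for the difference or for age in IUGR islets, where no transcript of any kind passed either. At an unadjusted p under 0.05, 7 and 8 members passed in these fits, against 25 and 35 in edgeR without a covariate. At an adjusted p under 0.05, DESeq2 without a covariate called 20 and 35. For age in control islets the calls of Wnt4, Wnt5b, Fzd1, Fzd9 and Znrf3 were kept with the mesenchymal covariate. The summed level of the mesenchymal list did not overlap between any of the 4 groups. That of the acinar list did not overlap between control and IUGR islets at either age. Calls lost or kept with a covariate thus cannot be ascribed to the list rather than to the group.

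Some calls were also lost when libraries rich in acinar RNA were left out. Fewer libraries alone make a call harder to reach, and the part of acinar RNA was not tested. Without both 10-week control libraries above 40% acinar, 1 control library of that age remained, which was assumed to vary like the rest. The 10-week calls of Wnt9a (-0.97), Fzd7 (-0.83), Sfrp2 (-1.02), Dkk3 (-0.87) and Rspo1 (-1.21) were then lost (adjusted p = 0.0734 to 0.274), as were those of Sfrp2 (-1.90) and Rspo1 (-1.82) for the difference (adjusted p = 0.101 and 0.0518). For age in control islets Wnt5b, Fzd6, Lrp5, Frzb, Dkk3, Rspo3, Znrf3 and Tcf7l2 missed the threshold (adjusted p = 0.0591 to 0.505). With control replicate 1 of 2 weeks left out as well (chosen after seeing the data), Dkk3 passed again at 10 weeks, Rspo1 for the difference, and Frzb and Dkk3 for age, while Dkk3 at 2 weeks, Axin2 for age in control and Rspo2 for age in IUGR islets were lost.

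**Figure D3:**
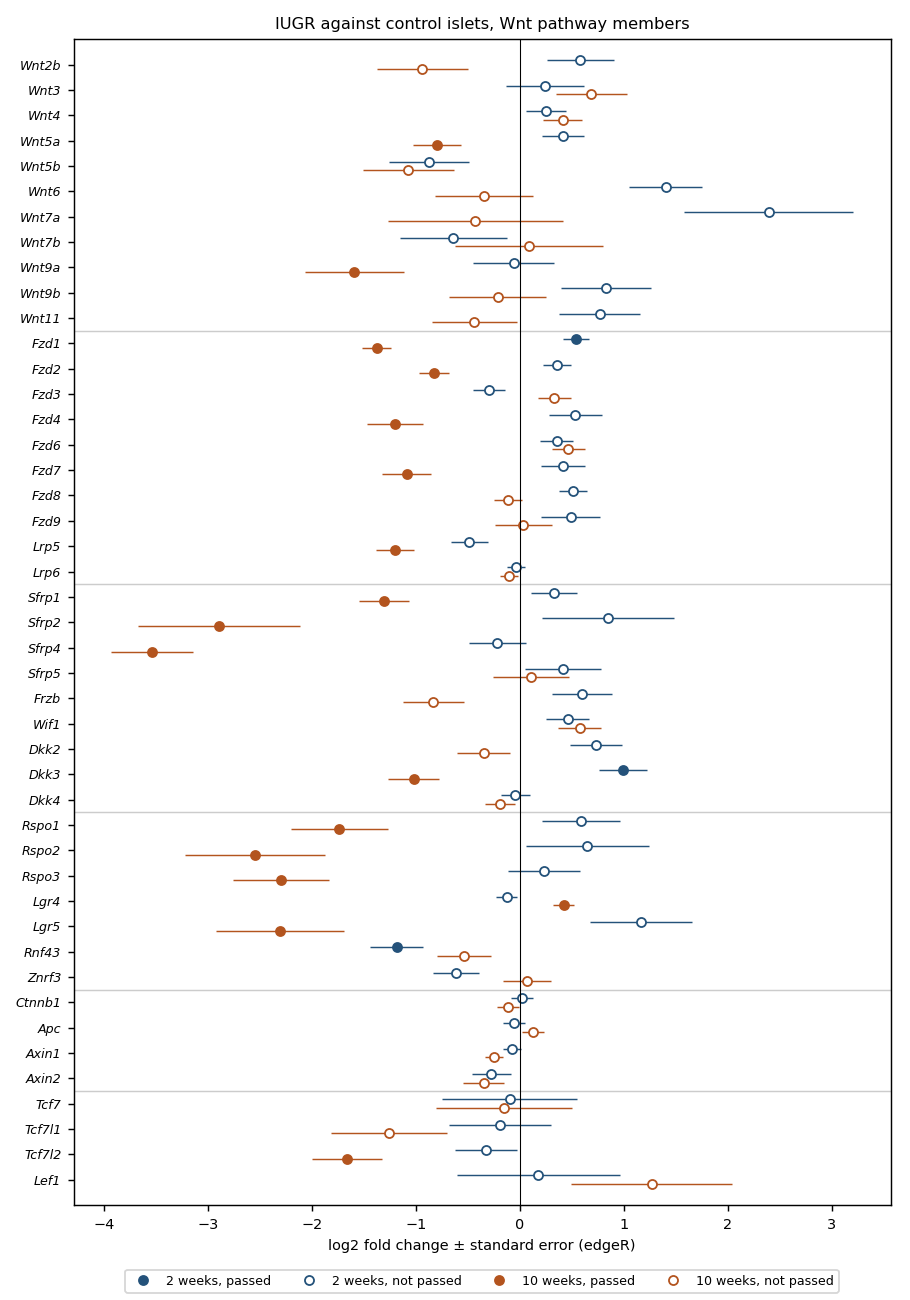
Log2 fold change of IUGR against control islets ± SE (x axis) at 2 weeks (blue) and 10 weeks (brown) for 45 tested members, grouped by role; filled points passed an adjusted p of 0.05 in edgeR. Wnt2 is left out because IUGR islets at 10 weeks had no count. Filled points at 10 weeks lie to the left of 0 except Lgr4, at 0.42.

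Among the ligands, most calls were for age, as they were over all transcripts. Wnt3 and Wnt4 rose and Wnt2b, Wnt5a and Wnt5b fell in both conditions. In control islets 2 of the 12 tested ligands rose and 3 fell, beside 17.2% and 15.1% of all transcripts. In IUGR islets 2 rose and 7 fell, beside 27.3% and 29.2% of all transcripts. Wnt3, a classical activator of the canonical branch, had 1.20, 1.17 and 2.12 scaled CPM in control and 1.73, 1.78 and 1.84 in IUGR islets at 2 weeks, and 16.7, 9.05 and 7.96 in control and 25.4, 10.9 and 18.0 in IUGR islets at 10 weeks. Every 10-week library lay above every 2-week library. The log2 change with age was 2.89 ± 0.38 in control (adjusted p = 0.000446) and 3.34 ± 0.37 in IUGR islets (adjusted p = 3.47e-05), or 7.43-fold and 10.1-fold. Wnt4, best known from the development of kidney and gonad, had 4.81, 5.48 and 7.59 scaled CPM in control and 7.40, 7.23 and 6.66 in IUGR islets at 2 weeks, and 22.8, 18.7 and 15.4 in control and 23.0, 22.5 and 30.4 in IUGR islets at 10 weeks. It also separated the ages completely, with log2 changes of 1.67 ± 0.20 (adjusted p = 0.000277) and 1.83 ± 0.19 (adjusted p = 2.45e-05). At 10 weeks both were higher in IUGR by point value, Wnt3 by 0.69 ± 0.34 (adjusted p = 0.148) and Wnt4 by 0.41 ± 0.19 (adjusted p = 0.120), but neither passed and control and IUGR libraries overlapped for both.

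Wnt2b, a canonical ligand of embryonic mesenchyme, stood at 2.55, 4.32 and 4.55 scaled CPM in control and 6.38, 6.39 and 4.41 in IUGR islets at 2 weeks, and 0.317, 0.635 and 0.694 in control and 0.445, 0.274 and 0.148 in IUGR islets at 10 weeks. The lowest 2-week library was more than 3 times the highest 10-week library, and the log2 change with age was -2.79 ± 0.37 in control (adjusted p = 0.000510) and -4.31 ± 0.40 in IUGR islets (adjusted p = 1.19e-05). Wnt5a, the main ligand of the beta-catenin-independent branches, had 3.26, 4.63 and 3.88 scaled CPM in control and 4.95, 4.81 and 5.98 in IUGR islets at 2 weeks, and 1.11, 1.65 and 1.02 in control and 0.807, 0.772 and 0.618 in IUGR islets at 10 weeks. IUGR islets were the highest group at 2 weeks and the lowest at 10 weeks, with no overlap with control at either age. Its IUGR effect was 0.41 ± 0.20 at 2 weeks (adjusted p = 0.195) and -0.80 ± 0.23 at 10 weeks (adjusted p = 0.0275), and the difference of -1.21 ± 0.31 passed (adjusted p = 0.0250). The fall with age was -1.63 in control (adjusted p = 0.000481) and -2.84 in IUGR islets (adjusted p = 5.08e-06). The 10-week call of Wnt5a was lost without control replicate 2 (-0.52, adjusted p = 0.131) and without any of the 3 IUGR libraries (adjusted p = 0.0516 to 0.0906). That of the difference was lost without control replicate 2 or IUGR replicate 3 of 10 weeks, or IUGR replicate 1 or 3 of 2 weeks (adjusted p = 0.0501 to 0.0698).

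Wnt5b, a close relative of Wnt5a, had 7.53, 4.52 and 3.26 scaled CPM in control and 2.48, 2.23 and 3.59 in IUGR islets at 2 weeks, and 1.05, 1.58 and 1.79 in control and 1.11, 0.648 and 0.346 in IUGR islets at 10 weeks. It fell with age, with a log2 change of -1.79 ± 0.41 in control (adjusted p = 0.00762) and -1.99 ± 0.43 in IUGR islets (adjusted p = 0.00225). Unlike Wnt5a its point values were lower in IUGR islets at both ages, at -0.88 and -1.07, and neither passed (adjusted p = 0.164 and adjusted p = 0.0895). Wnt6 was scarce, with 0.200, 0.411 and 0.275 scaled CPM in control and 0.779, 0.730 and 0.885 in IUGR islets at 2 weeks, and 0.0951, 0.212 and 0.183 in control and 0.195, 0.124 and 0.0741 in IUGR islets at 10 weeks. IUGR islets at 2 weeks were above every other library, and Wnt6 fell with age in IUGR islets, with a log2 change of -2.60 ± 0.40 (adjusted p = 0.000257), while the IUGR effect at 2 weeks of 1.40 ± 0.35 did not pass (adjusted p = 0.0518). Wnt9a had 1.92, 1.60 and 1.06 scaled CPM in control and 1.46, 1.33 and 1.59 in IUGR islets at 2 weeks, and 0.602, 0.517 and 1.28 in control and 0.306, 0.374 and 0.0988 in IUGR islets at 10 weeks. The 3 IUGR libraries at 10 weeks lay below all others, with an IUGR effect of -1.59 ± 0.48 (adjusted p = 0.0302) and a fall with age in IUGR islets of -2.49 ± 0.46 (adjusted p = 0.000828). Without control replicate 3 of 10 weeks the IUGR effect of Wnt9a was -1.10 (adjusted p = 0.127), it missed the threshold also without IUGR replicate 1 or 3 of that age (adjusted p = 0.0612 and 0.0827), and with the acinar covariate its sign turned, to 0.53 (adjusted p = 0.685).

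Of the other 5 tested ligands, Wnt2 and Wnt11 passed for age in IUGR islets. Wnt2 had no count in the 3 IUGR libraries at 10 weeks, which put it at least 1.83-fold below IUGR islets at 2 weeks, taking 3 counts per library as the floor. Wnt11, a ligand of the polarity branch, fell there with a log2 change of -1.08 ± 0.40 (adjusted p = 0.0371). Both calls were lost without several single libraries, Wnt2 without IUGR replicate 1 or 2 of 2 weeks or any IUGR library of 10 weeks (adjusted p = 0.054 to 0.0752), and Wnt11 without any IUGR library of 2 weeks, control replicate 3 of 10 weeks or IUGR replicate 1 or 2 of 10 weeks (adjusted p = 0.0511 to 0.122). Wnt7a, Wnt7b and Wnt9b passed in no comparison, and no library held more than 0.718 scaled CPM of any of them.

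Of the 10 receptors tested 5 were lower in IUGR islets at 10 weeks and none was higher, beside 15.5% and 12.4% of all transcripts. Fzd1 had 14.6, 17.5 and 17.4 scaled CPM in control and 24.3, 23.8 and 24.1 in IUGR islets at 2 weeks, and 5.67, 8.06 and 5.95 in control and 2.42, 2.49 and 2.69 in IUGR islets at 10 weeks. In scaled CPM the groups did not overlap at either age, and the order turned. IUGR islets were 1.46-fold higher at 2 weeks and 2.59-fold lower at 10 weeks. The raw counts at 10 weeks were 179, 343 and 163 in control and 87, 100 and 109 in IUGR islets. Per total count control and IUGR islets overlapped at 10 weeks. The log2 effects were 0.54 ± 0.13 (adjusted p = 0.0479) and -1.38 ± 0.14 (adjusted p = 0.000535), and their difference was -1.92 ± 0.19 (adjusted p = 0.00166). With age Fzd1 fell, with a log2 change of -1.33 in control (adjusted p = 0.000131) and of -3.25 in IUGR islets (adjusted p = 5.28e-07), the smallest adjusted p of any member. The 2-week call just met the threshold and was lost without 9 of the 12 libraries taken out in turn, as were those of Dkk3 and Rnf43 (adjusted p = 0.0515 to 0.173 over the 3 genes). It was kept without control replicate 3 of 2 weeks and without control replicate 1 or 2 of 10 weeks.

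Fzd2 and Fzd7 had the same shape as Fzd1. Fzd2 had 5.27, 6.34 and 5.32 scaled CPM in control and 7.51, 6.39 and 7.82 in IUGR islets at 2 weeks, and 2.82, 3.15 and 3.07 in control and 1.89, 1.49 and 1.73 in IUGR islets at 10 weeks. Its IUGR effect was 0.36 ± 0.13 at 2 weeks (adjusted p = 0.116) and -0.82 ± 0.14 at 10 weeks (adjusted p = 0.00357), with a difference of -1.18 ± 0.20 (adjusted p = 0.00508). Control libraries lay below the IUGR libraries at 2 weeks, by a narrow margin, and above all of them at 10 weeks. Fzd7, a receptor of both canonical and polarity signals, had 3.32, 4.01 and 3.26 scaled CPM in control and 4.63, 4.92 and 4.59 in IUGR islets at 2 weeks, and 1.39, 1.34 and 2.04 in control and 0.946, 0.523 and 0.766 in IUGR islets at 10 weeks. At 10 weeks it was lower, at -1.09 ± 0.24 (adjusted p = 0.00860), against 0.42 ± 0.21 at 2 weeks (adjusted p = 0.207), and the difference was -1.51 ± 0.32 (adjusted p = 0.0116). The age change was -0.90 and -2.09 for Fzd2 and -1.16 and -2.66 for Fzd7 in control and IUGR islets, and all 4 passed (adjusted p from 2.70e-06 to 0.00305).

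Fzd4, known as the receptor of Norrin in blood vessels of the retina, differed from these in its age pattern. Its levels were 7.15, 9.54 and 8.28 scaled CPM in control and 11.3, 15.4 and 9.57 in IUGR islets at 2 weeks, and 5.39, 11.1 and 7.45 in control and 2.73, 3.79 and 3.93 in IUGR islets at 10 weeks. Control islets did not separate by age (-0.06 ± 0.26, adjusted p = 0.880), whereas IUGR islets fell, with a log2 change of -1.79 ± 0.27 (adjusted p = 0.000227). The IUGR effect at 10 weeks was -1.20 ± 0.27 (adjusted p = 0.00973), and its difference from that at 2 weeks was -1.73 ± 0.37 (adjusted p = 0.0127). Of 14 endothelial genes 11 fell in IUGR islets at 10 weeks, beside 15.5% of all transcripts. So did 26 of 27 acinar and 16 of 21 mesenchymal genes, while 6 of 13 beta cell genes rose. The part of these lists in the level of Fzd4 was not tested. With the mesenchymal covariate the 10-week effect of Fzd4 was 0.13 and with the acinar covariate -2.55, and only the second passed.

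The co-receptor Lrp5, needed for canonical signals and known from inherited disorders of bone mass, had 67.1, 66.8 and 42.3 scaled CPM in control and 38.7, 45.8 and 41.2 in IUGR islets at 2 weeks, and 36.5, 35.5 and 46.7 in control and 16.1, 15.7 and 19.8 in IUGR islets at 10 weeks. All 3 IUGR libraries at 10 weeks were below every other library. They were lower than control by -1.20 ± 0.18 (adjusted p = 0.00196), 2.30-fold, and the fall with age was -0.57 ± 0.18 in control (adjusted p = 0.0321) and -1.28 ± 0.18 in IUGR islets (adjusted p = 0.000156). The call for age in control islets was lost without control replicate 1 or 2 of either age (adjusted p = 0.0776 to 0.112). Its homologue Lrp6 stayed within 52.2 to 73.7 scaled CPM in all 12 libraries. For Lrp6 the IUGR effect was -0.03 ± 0.09 at 2 weeks (adjusted p = 0.830) and -0.10 ± 0.09 at 10 weeks (adjusted p = 0.411), and its fall with age in IUGR islets, -0.26 ± 0.09, passed at adjusted p = 0.0296 but not without 7 of the 12 libraries (adjusted p = 0.0687 to 0.141). These were IUGR replicates 1 and 2 of 2 weeks, the 3 control libraries of 10 weeks and IUGR replicates 2 and 3 of 10 weeks.

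The other 4 Frizzleds tested did not pass for IUGR at either age in edgeR. At an unadjusted p under 0.05 stood Fzd6 at both ages and Fzd8 at 2 weeks, and DESeq2 called Fzd8 at 2 weeks (0.53, adjusted p = 0.00563) and Fzd6 at 10 weeks (0.47, adjusted p = 0.0255). Fzd8 had 9.99, 14.6 and 12.4 scaled CPM in control and 19.4, 17.3 and 16.2 in IUGR islets at 2 weeks, and 11.3, 10.8 and 10.6 in control and 10.4, 8.92 and 11.0 in IUGR islets at 10 weeks. IUGR islets were highest at 2 weeks (0.52 ± 0.14, adjusted p = 0.0558), overlapped control at 10 weeks, and fell with age, with a log2 change of -0.80 ± 0.14 (adjusted p = 0.000490). Fzd9, scarce in every group, rose with age in both conditions. It had 0.458, 0.508 and 0.490 scaled CPM in control and 0.468, 0.791 and 0.802 in IUGR islets at 2 weeks, and 0.887, 1.43 and 1.64 in control and 1.25, 1.30 and 1.51 in IUGR islets at 10 weeks, a log2 rise of 1.43 ± 0.29 in control (adjusted p = 0.00392) and 0.98 ± 0.27 in IUGR islets (adjusted p = 0.0102). Fzd3 and Fzd6, best known from cell polarity and axon guidance, each passed once. Fzd3 rose with age in IUGR islets by 0.52 ± 0.16 (adjusted p = 0.0161), a call lost without IUGR replicate 1 of 2 weeks or replicate 1 or 3 of 10 weeks (adjusted p = 0.0513 to 0.0635). Fzd6 fell with age in control islets, with a log2 change of -0.51 ± 0.16 (adjusted p = 0.0338), a call lost without control replicate 2 or 3 of 2 weeks or replicate 1 or 3 of 10 weeks (adjusted p = 0.0895 to 0.11). In IUGR against control islets at 10 weeks Fzd6 was at 0.47 ± 0.16 (adjusted p = 0.0513).

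The secreted inhibitors split in 2 ways. Sfrp1, Sfrp2, Sfrp4 and Dkk3 fell in IUGR islets at 10 weeks (4 of the 9 tested), while Sfrp5 and Wif1 stayed above 33 scaled CPM in every library and passed in no comparison. Sfrp4 had the largest loss, with 1.49, 1.82 and 1.55 scaled CPM in control and 1.69, 1.15 and 1.35 in IUGR islets at 2 weeks, and 0.919, 1.06 and 0.803 in control and 0.139, 0.0249 and 0.0741 in IUGR islets at 10 weeks. The last 3 values rest on 5, 1 and 3 counts, and all 9 other libraries lie above 0.8 scaled CPM. The IUGR effect at 10 weeks was -3.54 ± 0.40 (adjusted p = 0.000735), 11.6-fold, against -0.21 ± 0.28 at 2 weeks (adjusted p = 0.636), and the difference was -3.32 ± 0.49 (adjusted p = 0.00331). This 10-week call passed in all 23 planned and added alternatives, at log2 values from -4.16 to -3.11. With age, Sfrp4 fell, with a log2 change of -4.12 ± 0.38 in IUGR islets (adjusted p = 1.16e-05), and its value in control was -0.80 ± 0.29 (adjusted p = 0.0555).

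Sfrp1, a decoy that holds Wnt ligands away from their receptors, had 3.89, 5.59 and 5.37 scaled CPM in control and 5.49, 6.70 and 6.56 in IUGR islets at 2 weeks, and 2.66, 3.83 and 4.60 in control and 1.86, 1.17 and 1.46 in IUGR islets at 10 weeks. Every 10-week IUGR library was below all others, at -1.30 ± 0.24 against control (adjusted p = 0.00441), with a difference from the 2-week effect of -1.64 ± 0.33 (adjusted p = 0.00949) and a fall with age in IUGR islets of -2.06 ± 0.24 (adjusted p = 4.29e-05). Sfrp2 varied more, with 1.97, 4.56 and 3.63 scaled CPM in control and 8.29, 5.42 and 4.73 in IUGR islets at 2 weeks, and 1.27, 0.776 and 6.54 in control and 0.167, 0.498 and 0.445 in IUGR islets at 10 weeks. Control replicate 3 of 10 weeks stood far above the other two, and the fit gave -2.90 ± 0.78 at 10 weeks (adjusted p = 0.0202), -3.75 ± 1.01 for the difference (adjusted p = 0.0317) and -4.03 ± 0.78 for age in IUGR islets (adjusted p = 0.00115). Without that library the 10-week effect was -1.43 (adjusted p = 0.0826) and the difference -2.23 (adjusted p = 0.0522). The 10-week call was also lost without IUGR replicate 1 or 3 of that age (adjusted p = 0.0689 and 0.0538), and the call of the difference without control replicate 1 or 3 or IUGR replicate 1 or 2 of 2 weeks, or any IUGR library of 10 weeks (adjusted p = 0.0588 to 0.0776).

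Dkk3, a divergent Dickkopf that is not a typical inhibitor of the pathway, passed in all 5 comparisons. Its values were 9.04, 15.2 and 12.9 scaled CPM in control and 25.5, 26.8 and 21.7 in IUGR islets at 2 weeks, and 6.02, 5.92 and 7.52 in control and 2.03, 3.89 and 3.63 in IUGR islets at 10 weeks. IUGR islets were 1.99-fold higher at 2 weeks (0.99 ± 0.23, adjusted p = 0.0479) and 2.03-fold lower at 10 weeks (-1.02 ± 0.25, adjusted p = 0.0131), with no overlap at either age. The difference was -2.01 ± 0.34 (adjusted p = 0.00527). With age it fell, with a log2 change of -0.94 ± 0.24 in control (adjusted p = 0.0124) and of -2.95 ± 0.25 in IUGR islets (adjusted p = 7.45e-06). The control value was -0.76 without control replicate 2 of 2 weeks (adjusted p = 0.0533). Dkk2, which binds Lrp5 and Lrp6, had 9.19, 16.5 and 11.3 scaled CPM in control and 22.1, 22.0 and 17.6 in IUGR islets at 2 weeks, and 6.72, 12.2 and 10.7 in control and 6.23, 8.02 and 9.07 in IUGR islets at 10 weeks. It fell with age in IUGR islets, with a log2 change of -1.40 ± 0.25 (adjusted p = 0.000762), and IUGR and control overlapped at 10 weeks (-0.35 ± 0.25, adjusted p = 0.335).

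Frzb, a relative of the secreted frizzled-related proteins, rose with age in control islets. It had 2.92, 5.05 and 8.24 scaled CPM in control and 9.31, 7.54 and 7.83 in IUGR islets at 2 weeks, and 9.92, 12.9 and 9.38 in control and 5.68, 5.58 and 6.87 in IUGR islets at 10 weeks. The rise was 0.98 ± 0.29 (adjusted p = 0.0250), the value in IUGR islets was -0.45 ± 0.29 (adjusted p = 0.207), and the difference of -1.43 ± 0.41 passed (adjusted p = 0.0403). At 10 weeks the control libraries were all above the IUGR libraries, at -0.83 ± 0.29 for IUGR, which did not pass (adjusted p = 0.0542). The rise was lost without control replicate 2 of 2 or of 10 weeks (adjusted p = 0.0793 and 0.0633), and the difference without 9 of the 12 libraries (all but control replicates 1 and 3 of 2 weeks and control replicate 1 of 10 weeks, adjusted p = 0.0591 to 0.0923). Dkk4 fell with age in IUGR islets, with a log2 change of -0.40 ± 0.14 (adjusted p = 0.0310), a call lost without IUGR replicate 2 or 3 of 2 weeks, any control library of 10 weeks, or IUGR replicate 1 or 3 of 10 weeks (adjusted p = 0.0609 to 0.108). Wif1, which binds Wnt ligands directly, ran from 60.8 to 149.7 scaled CPM over the 12 libraries. Its IUGR effect was 0.46 ± 0.20 at 2 weeks (adjusted p = 0.166) and 0.58 ± 0.20 at 10 weeks (adjusted p = 0.0562), and the 10-week groups did not overlap. Sfrp5 ran from 33.1 to 146 scaled CPM and had log2 values of 1.02 ± 0.37 (adjusted p = 0.0542) and 0.72 ± 0.37 (adjusted p = 0.117) for age in control and IUGR islets.

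In the R-spondin arm, the ligands Rspo1 to Rspo3 and Lgr5 fell in IUGR islets at 10 weeks while Lgr4 rose. Rspo4 and Lgr6, which are not members, overlapped between control and IUGR islets at 10 weeks. Rspo4 had 0.317, 0.235 and 0.365 scaled CPM in control and 0.195, 0.423 and 0.420 in IUGR islets. Lgr6 had 0.982, 1.06 and 1.02 in control and 1.34, 0.872 and 1.14 in IUGR islets. Rspo3 had 1.03, 2.17 and 1.80 scaled CPM in control and 2.08, 1.97 and 1.87 in IUGR islets at 2 weeks, and 0.380, 0.987 and 0.657 in control and 0.139, 0.199 and 0.0741 in IUGR islets at 10 weeks. The 10-week IUGR libraries were below all others, at -2.29 ± 0.46 against control (adjusted p = 0.00627). The difference from the 2-week effect was -2.53 ± 0.58 (adjusted p = 0.0164). Rspo1 had 1.63, 2.33 and 3.14 scaled CPM in control and 4.07, 3.20 and 3.47 in IUGR islets at 2 weeks, and 0.602, 0.705 and 1.75 in control and 0.251, 0.199 and 0.445 in IUGR islets at 10 weeks. It was lower, at -1.73 ± 0.46 at 10 weeks (adjusted p = 0.0199), with a difference of -2.33 ± 0.60 (adjusted p = 0.0261), and control replicate 3 was the highest of its age. Both ligands fell with age in control and in IUGR islets, with log2 changes for Rspo3 of -1.29 (adjusted p = 0.0222) and -3.82 (adjusted p = 4.17e-05), and for Rspo1 of -1.24 (adjusted p = 0.0361) and -3.57 (adjusted p = 7.19e-05).

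These calls differed in how much they rested on single libraries. The 10-week call of Rspo3 was kept without each of the 12 libraries, and that of Rspo1 was lost without control replicate 3 (-1.12, adjusted p = 0.0775) or IUGR replicate 1 or 2 of 10 weeks (adjusted p = 0.0636 and 0.07). The difference for Rspo1 was lost without IUGR replicate 1 of 2 weeks, or control replicate 3 or IUGR replicate 1 or 2 of 10 weeks (adjusted p = 0.0559 to 0.0664). In control islets the fall of Rspo3 with age was lost without control replicate 2 or 3 of 2 weeks or replicate 1 or 3 of 10 weeks (adjusted p = 0.0521 to 0.0861). That of Rspo1 was lost without control replicate 2 or 3 or any IUGR library of 2 weeks, or control replicate 1 or 2 of 10 weeks (adjusted p = 0.0519 to 0.112).

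Rspo2 was near the limit of detection, with 0.143, 0.176 and 0.118 scaled CPM in control and 0.227, 0.264 and 0.200 in IUGR islets at 2 weeks, and 0.349, 0.635 and 0.219 in control and 0, 0.149 and 0.0494 in IUGR islets at 10 weeks. The 10-week IUGR values are 0, 6 and 2 counts. The fit gave -2.55 ± 0.67 at 10 weeks (adjusted p = 0.0188), -3.20 ± 0.90 for the difference (adjusted p = 0.0375) and -1.72 ± 0.68 for age in IUGR islets (adjusted p = 0.0492). Without IUGR replicate 2 the 10-week effect was -3.85, and the call was lost without control replicate 2 (-2.02, adjusted p = 0.0711) or IUGR replicate 3 (adjusted p = 0.0656). The difference was lost without any 2-week library, control replicate 2 or IUGR replicate 1 or 3 of 10 weeks (adjusted p = 0.0526 to 0.0888). The age call was lost without 10 of the 12 libraries, all but control replicate 2 and IUGR replicate 2 of 10 weeks (adjusted p = 0.053 to 0.139).

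Lgr4 and Lgr5 are receptors for the same R-spondins, and Lgr5 marks stem cells of the gut and other epithelia. Lgr4 had 56.7, 52.4 and 62.6 scaled CPM in control and 53.6, 50.5 and 53.3 in IUGR islets at 2 weeks, and 68.6, 57.5 and 69.2 in control and 93.3, 80.1 and 88.3 in IUGR islets at 10 weeks, so that the 10-week IUGR libraries were above all others. Its rise was 0.42 ± 0.10 against control at 10 weeks (adjusted p = 0.0114) and 0.73 ± 0.10 with age in IUGR islets (adjusted p = 0.000114), and the difference between the IUGR effects was 0.55 ± 0.14 (adjusted p = 0.0257). Lgr5 was scarce, with 0.229, 0.782 and 0.314 scaled CPM in control and 1.47, 0.869 and 0.685 in IUGR islets at 2 weeks, and 0.349, 0.893 and 0.402 in control and 0.0835, 0.124 and 0.124 in IUGR islets at 10 weeks. IUGR islets held the 3 lowest libraries at 10 weeks, with 3, 5 and 5 counts. The effect was -2.30 ± 0.61 at 10 weeks (adjusted p = 0.0195) against 1.17 ± 0.49 at 2 weeks (adjusted p = 0.152), with a difference of -3.47 ± 0.79 (adjusted p = 0.0158) and an age change of -3.15 ± 0.59 in IUGR islets (adjusted p = 0.000927). The 10-week call of Lgr5 was lost without control replicate 2 (-1.71, adjusted p = 0.085) or any IUGR library of that age (adjusted p = 0.0515 to 0.0629). The difference for Lgr4 was lost without control replicate 3 or any IUGR library of 2 weeks, or IUGR replicate 1 or 3 of 10 weeks (adjusted p = 0.0511 to 0.0686).

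The ubiquitin ligases Znrf3 and Rnf43 were called in other comparisons than the ligands. Znrf3 had 7.44, 5.65 and 3.98 scaled CPM in control and 3.40, 4.05 and 3.69 in IUGR islets at 2 weeks, and 3.07, 2.73 and 3.14 in control and 3.98, 2.71 and 2.67 in IUGR islets at 10 weeks. It fell with age in control islets, with a log2 change of -0.93 ± 0.23 (adjusted p = 0.0110), and at 10 weeks IUGR and control overlapped (0.07 ± 0.23, adjusted p = 0.857). Rnf43 had 8.84, 5.73 and 4.47 scaled CPM in control and 2.55, 2.58 and 3.22 in IUGR islets at 2 weeks, and 6.18, 3.55 and 5.29 in control and 3.56, 3.41 and 3.36 in IUGR islets at 10 weeks. At 2 weeks IUGR islets were below all 3 control libraries, at -1.18 ± 0.26 (adjusted p = 0.0442), and at 10 weeks the value was -0.53 ± 0.26 (adjusted p = 0.143). The control library with the most Rnf43 at 2 weeks, replicate 1, was also that with the largest acinar share, 40.8%. Without it the 2-week effect was -0.87 (adjusted p = 0.148). The call was also lost with either covariate, where no transcript of any kind passed at 2 weeks. At 10 weeks the control libraries with acinar shares of 41.4% and 45.4% had 6.18 and 5.29 scaled CPM of Rnf43. The control library with a share of 13.4% had 3.55. The covariate cannot be told apart from the group, and the part of acinar RNA in the level of Rnf43 was not tested.

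**Figure D4:**
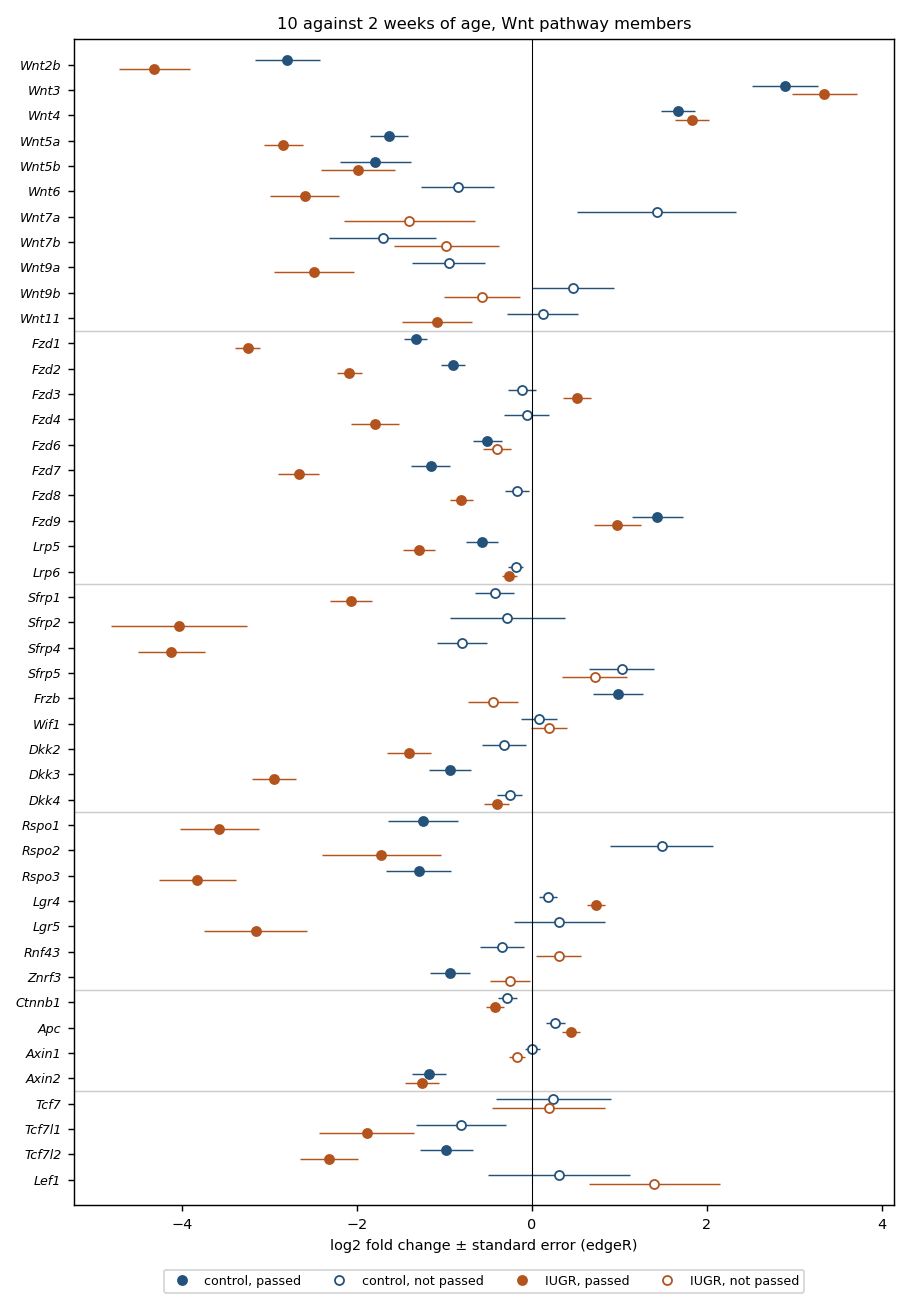
Log2 fold change of 10 against 2 weeks ± SE (x axis) in control (blue) and IUGR islets (brown) for 45 tested members, grouped by role; filled points passed an adjusted p of 0.05 in edgeR. Wnt2 is left out because IUGR islets at 10 weeks had no count. Wnt3, at 2.89 and 3.34, and Wnt4 lie to the right of 0, and most filled points lie to the left.

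Of beta-catenin and its destruction complex, none of the 4 tested members passed for IUGR at either age in edgeR. Only Axin1 at 10 weeks had an unadjusted p under 0.05, and DESeq2 called it there (-0.24, adjusted p = 0.0453). Ctnnb1 had 432, 408 and 427 scaled CPM in control and 431, 428 and 429 in IUGR islets at 2 weeks, and 349.7, 309 and 386 in control and 305, 338 and 321 in IUGR islets at 10 weeks. Control and IUGR libraries were interleaved at 10 weeks, with effects of 0.02 ± 0.10 at 2 weeks (adjusted p = 0.905) and -0.12 ± 0.10 at 10 weeks (adjusted p = 0.436), both with a sign that turned in several alternatives. It fell with age in IUGR islets, with a log2 change of -0.42 ± 0.10 (adjusted p = 0.00560), and in control the value was -0.28 ± 0.10 (adjusted p = 0.0622). Apc, the scaffold that holds beta-catenin in the complex, had 57.4, 53.4 and 50.5 scaled CPM in control and 50.6, 58.0 and 46.9 in IUGR islets at 2 weeks, and 68.5, 66.8 and 58.8 in control and 76.1, 62.7 and 73.2 in IUGR islets at 10 weeks. It rose with age in IUGR islets by 0.45 ± 0.11 (adjusted p = 0.00439), with 0.27 ± 0.11 in control (adjusted p = 0.0782). Axin1, the constitutive scaffold, ran from 19.8 to 26.8 scaled CPM and passed in no comparison. Its IUGR effect at 10 weeks was -0.25 ± 0.09 (adjusted p = 0.0574), without overlap of the groups.

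Axin2, a scaffold like Axin1 that is itself a target of the canonical branch and serves as its common readout, passed for age and not for IUGR. It had 9.30, 8.80 and 6.69 scaled CPM in control and 6.80, 6.86 and 6.85 in IUGR islets at 2 weeks, and 2.88, 4.37 and 3.65 in control and 3.56, 2.34 and 2.72 in IUGR islets at 10 weeks. Every 10-week library was below every 2-week library. The fall with age was -1.18 ± 0.19 in control (adjusted p = 0.00139) and -1.25 ± 0.19 in IUGR islets (adjusted p = 0.000276), 2.26-fold and 2.38-fold. The control value missed the threshold with all 3 libraries above 40% acinar left out (-0.81, adjusted p = 0.0596) and with the mesenchymal covariate (-0.998, adjusted p = 0.0812). The IUGR effect was -0.27 ± 0.19 at 2 weeks (adjusted p = 0.352) and -0.35 ± 0.20 at 10 weeks (adjusted p = 0.212), and the 10-week groups overlapped. The difference between the age changes was -0.07 ± 0.27 (adjusted p = 0.886), a value whose sign turned without control replicate 3 of 2 weeks or without replicate 2 of control or IUGR islets at 10 weeks (0.06, 0.16 and 0.06).

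The 250 bases before the RefSeq start of Axin2 in the assembly GRCr8, chr10:94398535-94398784 on the plus strand, are shown because this gene is the readout of TCF/LEF activity. Those of Tcf7l2, chr1:264791085-264791334 on the plus strand, are shown beside it because it is the TCF/LEF factor that fell in IUGR islets at 10 weeks. Capitals mark the letters CTTTGAT or CTTTGAA, the core read by TCF/LEF factors, searched on both strands.
Axin2: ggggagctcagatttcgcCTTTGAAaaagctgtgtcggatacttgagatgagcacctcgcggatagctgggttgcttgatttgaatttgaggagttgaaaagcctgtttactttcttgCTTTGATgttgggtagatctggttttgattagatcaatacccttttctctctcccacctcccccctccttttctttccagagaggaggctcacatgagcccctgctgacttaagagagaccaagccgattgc
Tcf7l2: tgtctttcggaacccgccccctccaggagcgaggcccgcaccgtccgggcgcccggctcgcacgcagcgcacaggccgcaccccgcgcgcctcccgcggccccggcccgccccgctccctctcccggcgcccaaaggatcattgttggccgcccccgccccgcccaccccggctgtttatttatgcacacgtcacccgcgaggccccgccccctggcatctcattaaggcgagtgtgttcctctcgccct
The Axin2 window held CTTTGAA from 232 to 226 and CTTTGAT from 132 to 126 bases before the start, and the Tcf7l2 window held neither. Its GC content was 73.6%, against 47.6% for Axin2. Of the 53 members 36 had an entry in the RefSeq table, and 3 of these (8.3%), Axin2, Dkk1 and Wnt8a, held at least 1 match. Among all 27457 genes of that table the share was 7.6%, close to that of the members.

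Of the TCF/LEF factors, Tcf7l2 fell in IUGR islets at 10 weeks. It had 3.58, 4.50 and 2.43 scaled CPM in control and 2.47, 3.45 and 2.47 in IUGR islets at 2 weeks, and 1.11, 2.30 and 1.90 in control and 0.668, 0.598 and 0.420 in IUGR islets at 10 weeks. In scaled CPM the 3 IUGR libraries at 10 weeks were below all others, and control and IUGR overlapped at 2 weeks. The raw counts at 10 weeks were 35, 98 and 52 in control and 24, 24 and 17 in IUGR islets. These libraries held 64.2, 39.6 and 62.2 M and 30.4, 34.1 and 35.0 M counts. Per total count control and IUGR islets overlapped at 10 weeks. The IUGR effect was -0.33 ± 0.29 at 2 weeks (adjusted p = 0.487) and -1.66 ± 0.34 at 10 weeks (adjusted p = 0.00641), 3.16-fold lower. The difference between them, -1.34 ± 0.45, did not pass in the main edgeR fit (adjusted p = 0.0686). It passed in DESeq2 (-1.35, adjusted p = 0.0311) and in edgeR with the replicate block (-1.33, adjusted p = 0.0414). With the acinar covariate it was -1.60 (adjusted p = 0.0519) and with the mesenchymal covariate 0.083, and neither passed. With age Tcf7l2 fell, with a log2 change of -0.98 ± 0.31 in control (adjusted p = 0.0318) and -2.31 ± 0.33 in IUGR islets (adjusted p = 0.000168). The control change was lost without control replicate 1 or 2 of 2 weeks or replicate 1 or 3 of 10 weeks (adjusted p = 0.0588 to 0.122). The call of the 10-week IUGR effect was kept without each library and lost with either covariate. The order of the group means was 3.50 in control and 2.79 in IUGR islets at 2 weeks, 1.77 in control and 0.562 in IUGR islets at 10 weeks, and the first 2 did not differ beyond their spread.

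None of the other 3 TCF/LEF members passed for IUGR in edgeR or DESeq2, and only Tcf7l1 at 10 weeks had an unadjusted p under 0.05 (-1.26 ± 0.56, adjusted p = 0.112). Tcf7l1, mostly a repressor, ran from 0.224 to 2.85 scaled CPM and fell with age in IUGR islets, with a log2 change of -1.89 ± 0.54 (adjusted p = 0.0121). Without IUGR replicate 2 of 2 weeks that value was -1.47 (adjusted p = 0.054). Tcf7 and Lef1, factors that are abundant in T cells, passed in no comparison and varied widely between replicates. At 10 weeks Tcf7 had 1.24, 7.15 and 2.88 scaled CPM in control and 1.61, 6.77 and 1.85 in IUGR islets, and Lef1 had 0.0951, 1.03 and 0.256 and 0.417, 2.47 and 0.618. Replicate 2 was the highest in both conditions, and at 2 weeks as well. A list of 10 T cell genes, chosen after these values had been seen, summed to 10.8, 57.7 and 21.0 scaled CPM in control and 16.5, 62.3 and 20.4 in IUGR islets, with the same library highest. Its part in the levels of Tcf7 and Lef1 was not tested.

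The transcripts whose log2 CPM followed that of Tcf7l2 most closely over the 12 libraries were Zfp703 (Pearson r 0.996), Capn5 (0.985), Smpd2 (0.984), Adamts15 (0.982) and Nfib (0.981). For Axin2 they were Chtf18 (0.991), Lig1 (0.985), Sema6c (0.981), Tead2 (0.980) and Plxnb1 (0.980). The libraries fall into 4 groups and share their mix of cells, so these values describe likeness across groups of the same samples.

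Other genes of the pathway came from 5 further lists. At 10 weeks, 10 of the 21 tested genes of Wnt secretion and of other extracellular and receptor functions fell in IUGR islets and none rose. The smallest p-values were those of Sostdc1, a secreted antagonist of Wnt and BMP (-4.44 ± 0.64, adjusted p = 0.00167), of the heparan sulphatase Sulf1 (-1.38 ± 0.28, adjusted p = 0.00631) and of the glypican Gpc3 (-1.14 ± 0.24, adjusted p = 0.00721). The share of this list that fell, 47.6%, stands beside 15.5% of all transcripts. Of 27 cytoplasmic components 4 fell (14.8%) and 2 rose (7.41%), no more than the 15.5% and 12.4% of all transcripts, and the smallest p-values were those of Nkd1, an inhibitor of Dishevelled and itself a Wnt target (-1.23 ± 0.16, adjusted p = 0.00110), and of Cxxc4, another Dishevelled-binding inhibitor, which rose (0.58 ± 0.13, adjusted p = 0.0111). Nkd1 had 6.37, 8.42 and 7.30 scaled CPM in control and 3.42, 3.31 and 2.67 in IUGR islets at 10 weeks, without overlap. Of 23 nuclear components 4 fell (17.4%) and 1 rose (4.35%), a share of falls near that of all transcripts, and the 3 with the smallest p were Sox7 (-2.29 ± 0.33, adjusted p = 0.00173), Sox17 (-1.45 ± 0.30, adjusted p = 0.00721) and the beta-catenin co-activator Bcl9l (-1.07 ± 0.27, adjusted p = 0.0154). Sox7 and Sox17 are also known as endothelial factors.

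Of 23 polarity and calcium genes that are not members, 5 fell (21.7%) and 2 rose (8.70%), beside 15.5% and 12.4% of all transcripts. The smallest p-values were those of Nfatc4 (-1.43 ± 0.24, adjusted p = 0.00277) and Nfatc2 (-1.51 ± 0.27, adjusted p = 0.00366), transcription factors of the calcium branch, and of the kinase Nlk (0.36 ± 0.09, adjusted p = 0.0120). Of 19 known target genes that are not members, 9 fell (47.4%) and 2 rose (10.5%). Myc had the smallest p (-2.57 ± 0.29, adjusted p = 0.000740), with 23.8, 12.9 and 20.4 scaled CPM in control and 2.28, 3.91 and 3.36 in IUGR islets at 10 weeks, and Ephb3 was lower as well (-2.95 ± 0.43, adjusted p = 0.00175). The control libraries with more Myc at 10 weeks, replicates 1 and 3, were those with acinar shares of 41.4% and 45.4%. Control replicate 2, with an acinar share of 13.4%, was also above every IUGR library of that age. The part of acinar RNA in the level of Myc was not tested. At 2 weeks 1 gene of each of 3 lists passed (4.35% to 4.76% of each, near the 3.88% of all transcripts) and none of the other 2 lists: Ror1, a receptor for Wnt5a, was higher (0.54 ± 0.12, adjusted p = 0.0479), as was Camk2g (0.47 ± 0.10, adjusted p = 0.0431), and the co-repressor Tle2 was lower (-0.79 ± 0.14, adjusted p = 0.0327).

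With age, 5 of the 21 extracellular genes fell (23.8%) and 2 rose (9.52%) in control islets, beside 15.1% and 17.2% of all transcripts. In IUGR islets 13 fell (61.9%) and 3 rose (14.3%), beside 29.2% and 27.3%. Gpc3, Cthrc1 and Ptk7 led in both, at -3.05, -2.55 and -1.23 in control and -4.65, -4.75 and -2.21 in IUGR islets, and all 6 values passed (adjusted p from 1.48e-06 to 0.000323). Of the target genes that are not members, 7 fell (36.8%) and 3 rose (15.8%) in control, and 13 fell (68.4%) and 3 rose (15.8%) in IUGR islets. Ephb2, a target known from the gut, fell with age in control and IUGR islets, with log2 changes of -1.17 (adjusted p = 0.000224) and -1.38 (adjusted p = 1.19e-05), and so did Tnfrsf19, with -1.14 (adjusted p = 0.00669) and -2.79 (adjusted p = 1.65e-05). The difference between the IUGR effects at both ages passed with a negative sign for 9 of the 21 extracellular genes (42.9%) and 8 of the 19 targets (42.1%), beside 10.4% of all transcripts, and with a positive sign for none of either. Nkd1 (-1.60 ± 0.21, adjusted p = 0.00240) and Myc (-2.21 ± 0.38, adjusted p = 0.00586) had the smallest p among the targets.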

How the data were processed

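RNA of isolated pancreatic islets was sequenced as stranded libraries depleted of ribosomal RNA, per the labels' protocols. Per the submitters' processing notes, the tools were TopHat2 2.0.9 and bedtools and the builds rn5 and mm9, with no roles stated. How reads were counted, on which strand and with which annotation is not given in the sources used here, so reads shared by overlapping genes or close paralogs may be split in unknown ways. The deposited values were raw counts per Ensembl rat transcript, with no normalization.

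The members and gene lists were chosen with earlier results of these data known. In R 4.3.3, edgeR 4.0.16 (filterByExpr, TMM, robust quasi-likelihood F test) fitted all 12 libraries as 4 groups. P-values were adjusted by Benjamini and Hochberg over the 20733 transcripts tested. The SE of a log2 fold change was its size divided by the root of F. Members with an adjusted p under 0.05 in a comparison, at most 28 by smallest p, are given by library. Ctnnb1, Axin2, Lgr5 and Tcf7l2 are always given. For each further list the 3 genes with the smallest p could be named. Steps were tested on simulated counts. The fits were repeated with no filter, DESeq2 1.42.0, RLE factors, a threshold of 0.1, 2 covariates, a replicate block, summed or single transcripts per symbol, fewer groups, and libraries left out. Promoters are RefSeq's (GRCr8).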

Additional observations from a re-analysis of the deposited data

Results flagged for a closer look

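For 15 members the IUGR effect at 10 weeks differed from that at 2 weeks in the test of the difference itself (edgeR, adjusted p under 0.05). For 14 of them the difference was negative. On the log2 scale it was -1.92 for Fzd1, -1.18 for Fzd2, -1.73 for Fzd4 and -1.51 for Fzd7 among the receptors. It was -1.64 for Sfrp1, -3.75 for Sfrp2, -3.32 for Sfrp4, -1.43 for Frzb and -2.01 for Dkk3 among the secreted inhibitors. It was -2.33 for Rspo1, -3.20 for Rspo2, -2.53 for Rspo3 and -3.47 for Lgr5 in the R-spondin arm, and -1.21 for the ligand Wnt5a. Lgr4 alone differed in the other direction, by 0.55. Groups of 3 are too small for a test of single outlying libraries.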

How the results depend on the processing

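Counts of members that passed were 3 for IUGR at 2 weeks, 17 at 10 weeks, 15 for the difference, 18 for age in control and 34 for age in IUGR islets. At 2 weeks the count was 6 with DESeq2, 7 at an adjusted p under 0.1, and 0 without a filter, with either covariate or with only the libraries of that comparison (15, 3, 4 and 17 at an unadjusted p under 0.05, for no filter, the acinar covariate, the mesenchymal covariate and those libraries). At 10 weeks it was 6 with the acinar covariate, 2 with the mesenchymal covariate and 11 with only the libraries of that comparison. The mesenchymal covariate left 0 for the difference, 8 for age in control and 0 for age in IUGR islets. Age in control gave 11 without both 10-week control libraries above 40% acinar. Leaving out each library in turn gave 0 to 7, 12 to 22, 9 to 20, 11 to 21 and 28 to 34. The 9 came without IUGR replicate 1 and the 11 without control replicate 2 of 2 weeks. Other settings stayed within 1.5 times of the counts. The difference has no fit with fewer groups, as it uses all 12 libraries.

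Same-numbered libraries did not deviate together in every pair (correlations from -0.14 to 0.48 over 12 pairs, 5 of them best with their own number), so no pairing was assumed. With the replicate block the counts were 3, 18, 18, 18 and 34, and every call was kept.

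Signs turned for these values, and the cause was not tested. In the fits with the mesenchymal covariate, the level of the list and the group cannot be told apart. With the acinar covariate Wnt9a was 0.53 at 10 weeks and Ctnnb1 0.22 (0.036 for the difference). With the mesenchymal covariate the values at 10 weeks were 0.13 for Fzd4 and 0.13 for Lgr5. For the difference they were 0.26 for Fzd4, 0.094 for Rspo3, 0.048 for Lgr5, 0.083 for Tcf7l2 and 0.28 for Axin2. For age in control Rspo3 was 0.10. For age in IUGR islets they were 6.48 for Wnt2, 4.25 for Wnt11, -0.48 for Fzd3, 1.23 for Fzd4, 1.16 for Sfrp2, 1.99 for Dkk2, 0.093 for Rspo2, 0.19 for Rspo3, 2.35 for Lgr5 and 2.19 for Tcf7l1, none of them past the threshold. Ctnnb1 was -0.014 at 2 weeks with only those libraries, 0.078 at 10 weeks and 0.028 for the difference without both acinar-rich 10-week controls, and 0.051 at 10 weeks without all 3 libraries above 40% acinar, a setting chosen after seeing the data. With single libraries left out, Ctnnb1 at 2 weeks ran from -0.027 to 0.040, Axin2 for the difference from -0.25 to 0.16, and Lgr5 for age in control from -0.26 to 1.02. Depth limits the scarce members: Sfrp4, Rspo2 and Lgr5 had at most 6 counts in any IUGR library at 10 weeks.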
